A study of Homo sapiens with 30 samples.

Results

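The 8 HEK293FT RNA libraries of the series were set against each other as a lamina side of 4 libraries and a fraction side of 4 libraries, out of 30 samples in the series. They were chosen by their labels alone. The lamina side held 2 native and 2 paraformaldehyde-fixed (PFA) preparations of RNA recovered by proximity labelling with APEX2, and the fraction side held 2 nuclear and 2 cytosolic fractions. HEK293FT is a fast-growing human embryonic kidney line. All 8 libraries came from asynchronous cells given the APEX2 lamin B1 construct by Lipofectamine 2000, so the fractions carried the construct too, and the RNA was taken with Trizol and made into ribodepleted TruSeq v2 libraries. No unlabelled or untransfected library was analysed here, and the labels do not say how the fractions or the pull-down were made. The word native stands for the preparation whose label names no fixation. Values said to be at the lamina are those of the lamina libraries, and without an unlabelled library they do not show where an RNA lies. Nothing states that replicates were separate cultures, so each p-value measures only the spread between these libraries, which may be technical.

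The nuclear lamina is a mesh of lamin filaments beneath the inner nuclear membrane that anchors chromatin and touches the nuclear pores. APEX2 is an engineered peroxidase that tags molecules close to it when its substrate and hydrogen peroxide are supplied, and fused to lamin B1 it tags what lies at the nuclear edge. An RNA sample that merely mixed nuclear and cytosolic RNA would hold each transcript at a level between its levels in those fractions. The question asked here was therefore which RNAs lay on 1 side of both fractions at once.

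Total counts ran from 2321291 (PFA replicate 2) to 8557777 (native replicate 1), and 16504 of 27630 genes were tested. Levels (CPM) are read counts relative to the TMM-scaled library total. They are shares of a library from pooled cells, so less RNA in every cell and its loss from some cells cannot be told apart. The 7 markers listed for HEK293FT (VIM, KRT8, KRT18, NEFM, NEFL, INA and PAX2) had counts in all 8 libraries, except that PAX2 had none in cytosolic replicate 2, and summed to between 354 and 1802 CPM of total counts. Of markers of other lines and tissues, the K562 genes HBG1 and HBG2 and the blood genes PTPRC and CD3E had no count, and the blood list summed to at most 8.29 CPM. The 6 genes listed for HCT116 summed to between 21.5 and 51.3 CPM, of which CDX2 gave 9.21 to 44.2. PFA replicate 1 stood apart from the other lamina libraries. MALAT1, a nuclear-retained long RNA, measured 10962 and 16522 CPM in nuclear and 795 and 974 in cytosolic RNA. It measured 5456 and 12246 CPM in the native preparations and 595 and 3079 in PFA replicates 1 and 2. PFA replicate 1 thus lay below both cytosolic libraries for this RNA. The calls of the average contrast, the calls against each fraction and the genes whose sides do not overlap are given with and without that library.

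Most RNAs lay between the fractions. The mean of the lamina side fell between the nuclear and the cytosolic mean for 10894 genes (66.0%), above both for 2970 (18.0%) and below both for 2640 (16.0%). The share between the fraction means was 59.2% and 54.5% in the native libraries and 49.6% and 55.3% in the PFA libraries when each was taken alone. Of the variance of log2(CPM + 1), summed over genes, 55.9% lay between the nuclear and cytosolic groups, 12.01% between the lamina side and the fraction side and 8.29% between the PFA and native groups, while 23.8% lay within groups. The contrast of the sides was thus small beside the contrast of the fractions. No gene was called between PFA and native (edgeR quasi-likelihood test, smallest Benjamini-Hochberg adjusted p 0.257), while 1821 had an unadjusted p under 0.05.

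The average contrast of the sides called 17 genes higher (0.103% of those tested) and 19 lower (0.115%) on the lamina side by the edgeR quasi-likelihood test at an adjusted p under 0.05. Total counts in place of TMM scaling gave 315 higher and 26 lower, so that 92.4% of calls were higher instead of 47.2%, and shifted the median over all genes from 0.05 to 0.27 (log2). A replicate block gave 75 higher and 66 lower, and 1 coefficient per side gave 0 and 0. The calls depended on single libraries. Without 1 of the nuclear or cytosolic libraries 1 or 2 genes were higher and 1 lower, without native replicate 1 there were 5 and 10, without PFA replicate 1 there were 331 and 290, and without PFA replicate 2 there were 210 and 198.

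That average can be moved by 1 fraction alone, so each gene was also asked to differ from both. Against the nuclear fraction the lamina mean was higher for 1595 genes (9.66%) and lower for 1934 (11.7%), and against the cytosolic fraction it was higher for 1007 (6.1%) and lower for 1016 (6.16%). The strictest reading took the larger of a gene's p-values from these comparisons and adjusted it over all genes. It called 0 genes higher (0%) and 0 lower (0%) with edgeR. The smallest adjusted value was 0.0504, for SNORA53, and 0.229 among genes above both fractions. Unadjusted, 120 genes above and 133 below had a larger p under 0.05, and the Wald test of DESeq2 called 3 and 4. A looser reading required an adjusted p under 0.05 in each comparison separately. It called 20 genes higher (0.121%) and 32 lower (0.194%) than each fraction. Leaving out cytosolic replicate 1 or 2 ended all of these calls, nuclear replicate 1 left 1 and 1, and nuclear replicate 2 left 4 and 3. Without native replicate 1 they numbered 5 and 15, without native replicate 2 12 and 27, without PFA replicate 1 46 and 105, and without PFA replicate 2 36 and 46. The comparisons with the nuclear and cytosolic fractions share the same lamina libraries. Genes below are called higher or lower by the average contrast or by this looser reading.

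**Figure D1:**
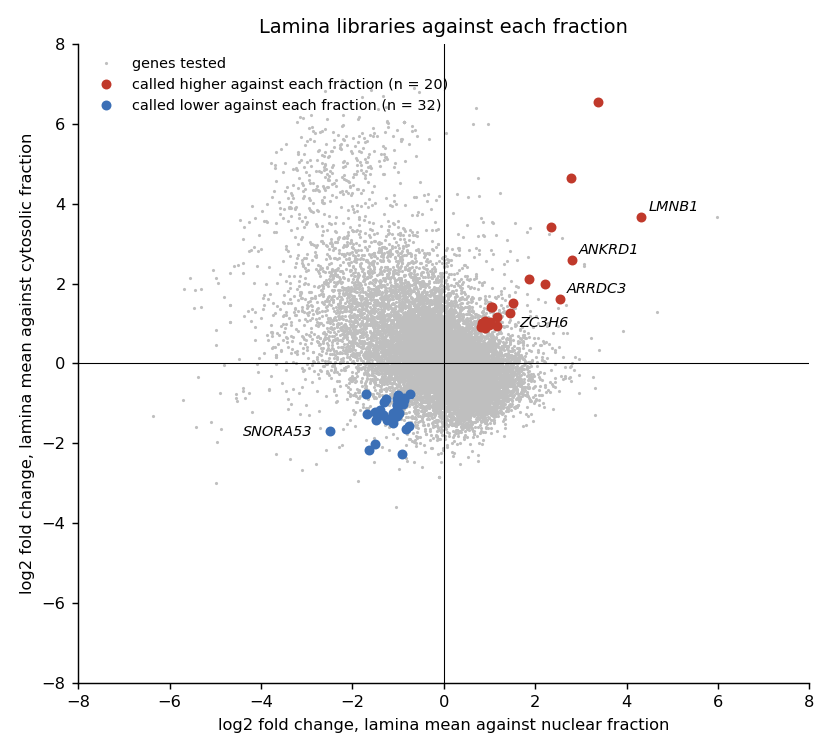
Each grey point is 1 of 16504 genes, with the log2 fold change of the lamina mean against the nuclear fraction (x axis) and against the cytosolic fraction (y axis), from the edgeR fit. Most points run from upper left to lower right, between the fractions; red points are the 20 genes called higher and blue points the 32 called lower than each fraction.

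As a description of the library values with no test, all 4 lamina libraries lay above all 4 fraction libraries for 358 genes (2.17%) and below them for 290 (1.76%). A gap of at least 1.5 times between the sides was left for 25 and 19 of them, and a gap of at least 2 times for 10 and 2. Without PFA replicate 1 the counts were 573 and 673, and without native replicate 2 they were 752 and 474. This order is easier to meet with fewer libraries, and the counts rose whichever library was left out. The rise alone therefore says nothing about a library. Total counts in place of TMM scaling gave 760 and 98. Of the genes called by the average contrast, 11 of 17 higher and 12 of 19 lower had sides that did not overlap, and 8 and 10 were also called against each fraction. The lamina mean of 2 higher and 3 lower calls lay between the fraction means, so these do not separate the lamina from both. Of the genes called against each fraction, 18 of 20 higher and 28 of 32 lower did not overlap.

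ARRDC3 (hg19, chromosome 5, 90664449 to 90679190) lay above both fractions in every library. It encodes an alpha-arrestin, an adaptor that brings ubiquitin ligases to membrane proteins. It measured 32.1 and 21.1 CPM in nuclear, 44.1 and 57.1 in cytosolic, 121 and 125 in native and 186 and 207 in PFA libraries. Its lowest lamina library was 2.12 times its highest fraction library. The log2 fold change between the sides was 2.08 (SE 0.21, edgeR adjusted p 0.00128), 2.54 against nuclear and 1.62 against cytosolic RNA. Leaving out 1 library at a time gave 1.95 to 2.24 and kept the call, whereas a fit with 1 coefficient per side called no gene at all. None of the other alpha-arrestin genes passed the average contrast. TXNIP and ARRDC4 were higher than in the nuclear fraction, with log2 fold changes of 1.40 and 1.35 (edgeR adjusted p 0.0101 and 0.00828), and measured -0.07 and -0.47 against the cytosolic fraction. ARRDC1 and ARRDC2 had side values of -0.20 and -0.39, which did not pass the test, and that of ARRDC1 was 0.06 with total counts.

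LMNB1 encodes the lamin that was fused to APEX2, and counts cannot separate its own transcript from that of the construct. It measured 3231 and 3507 CPM in nuclear and 4197 and 6382 in cytosolic RNA. The native preparations held 76513 and 26168 CPM and the PFA ones 96237 and 81004. Native replicate 2 was the lowest of the lamina side and still 4.10 times the highest fraction library. The log2 fold change of the sides was 4.0 (SE 0.47, edgeR adjusted p 0.00431). Among the 20 genes of lamins and the inner nuclear membrane, LMNB1 was the 1 gene called against each fraction. LMNB2, the other B-type lamin, was higher than in the nuclear fraction (log2 fold change 1.35, edgeR adjusted p 0.00802) and measured -0.52 against the cytosolic one (adjusted p 0.176). LMNA had a side value of -0.04, which turned to 0.19 with total counts, and LBR, the lamin B receptor, one of 0.26 (adjusted p 0.943 and 0.552). EMD, which encodes emerin, measured 0.92 against nuclear (edgeR adjusted p 0.0336) and -0.49 against cytosolic RNA (adjusted p 0.216). Of the 29 nuclear pore genes, 0 were called against each fraction and 0 had sides that did not overlap. Of all genes, 0.121% were called higher and 0.194% lower than each fraction, and 2.17% lay above and 1.76% below without overlap. Counts of 0 in 29 genes lie near those shares.

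ANKRD1 and AJUBA were the members of a list of 24 YAP targets that were called higher than each fraction, beside 0.121% of all genes. YAP is the transcriptional co-activator that the Hippo pathway keeps out of the nucleus, and it acts through TEAD factors. ANKRD1 (chromosome 10, 92671857 to 92681032), an ankyrin repeat gene widely read as a YAP target, measured 4.51 and 5.67 CPM in nuclear and 3.61 and 8.46 in cytosolic RNA. It measured 43.7 and 18.3 CPM in native and 47.7 and 33.5 in PFA libraries. The sides did not overlap, and the lowest lamina library was 2.16 times the highest fraction library. Its log2 fold change was 2.70 (SE 0.34, edgeR adjusted p 0.00884), 2.80 against nuclear and 2.60 against cytosolic RNA. AJUBA (chromosome 14, 23440383 to 23451851) encodes a LIM protein that binds the LATS kinases of the Hippo pathway. It measured 17.3 and 26.3 CPM in nuclear, 23.4 and 27.3 in cytosolic, 39.9 and 40.8 in native and 55.8 and 61.4 in PFA libraries. The average contrast gave 1.05 (SE 0.21, edgeR adjusted p 0.0578), while the differences from the nuclear and cytosolic fractions were 1.16 and 0.94 (adjusted p 0.0116 and 0.0341). RASSF1 (chromosome 3, 50367217 to 50378367), a scaffold gene that also acts in the Hippo pathway and was not in the list, measured 20.9, 32.8, 17.5 and 23.7 CPM in the nuclear and cytosolic libraries. At the lamina it measured 43.7 and 38.2 CPM in native and 70.6 and 74.7 in PFA libraries. Its log2 fold change was 1.22 (SE 0.22, edgeR adjusted p 0.0448). RASSF1 shares exonic bases with RASSF1-AS1, and strand was not used in counting. Over the list the median was 0.35, against 0.05 for all genes. Single lamina libraries had medians of 0.39 and 0.63 (native) and 0.09 and 0.42 (PFA replicates 1 and 2). The list's summed level overlapped between the sides, with 698 to 930 CPM in the fractions and 817 to 1286 at the lamina. The lamina mean was above both fractions for 8 of 24 and below both for 1, beside 18.0% and 16.0% of all genes. Against the nuclear fraction 5 rose and 0 fell, beside 9.66% and 11.7% of all genes. Against the cytosolic one 3 rose and 0 fell, beside 6.1% and 6.16%.

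These genes are shown with 250 bases of promoter each because TEAD factors are known for the motif GGAATG. Each window was taken before the start of 1 RefSeq model, which can differ from the outermost start of the gene as counted on hg19. The promoters are from RefSeq on GRCh38.p14, written 5′ to 3′ on the gene's strand, which is the minus strand for each. Capitals mark GGAATG on either strand; on the opposite strand it reads CATTCC. The windows are chr10:90921088-90921337, chr14:22982552-22982801, chr3:50337451-50337700 and chr5:91383318-91383567.
ANKRD1: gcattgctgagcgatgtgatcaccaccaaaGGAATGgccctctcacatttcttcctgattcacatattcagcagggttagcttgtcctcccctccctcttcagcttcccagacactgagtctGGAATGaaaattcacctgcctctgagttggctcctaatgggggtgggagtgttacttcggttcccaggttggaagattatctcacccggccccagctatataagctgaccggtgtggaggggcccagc
AJUBA: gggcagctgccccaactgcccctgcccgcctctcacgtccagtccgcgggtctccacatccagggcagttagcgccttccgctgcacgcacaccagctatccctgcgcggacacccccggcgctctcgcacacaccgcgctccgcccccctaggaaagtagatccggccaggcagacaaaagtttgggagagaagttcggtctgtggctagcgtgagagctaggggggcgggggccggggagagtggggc
RASSF1: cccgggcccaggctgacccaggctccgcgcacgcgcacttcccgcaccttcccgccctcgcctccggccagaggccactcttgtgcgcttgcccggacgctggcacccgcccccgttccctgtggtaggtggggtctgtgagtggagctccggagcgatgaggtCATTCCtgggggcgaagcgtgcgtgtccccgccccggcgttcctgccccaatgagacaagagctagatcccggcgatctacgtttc
ARRDC3: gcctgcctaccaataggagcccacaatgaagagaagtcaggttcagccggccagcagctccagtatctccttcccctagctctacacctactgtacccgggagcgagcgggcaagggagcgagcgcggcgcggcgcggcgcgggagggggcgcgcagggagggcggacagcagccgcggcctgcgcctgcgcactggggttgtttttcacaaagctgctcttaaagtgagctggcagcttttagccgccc
ANKRD1 held 2 matches, RASSF1 1, and AJUBA and ARRDC3 0. LMNB1, ZC3H6, CYB5D2, TSPYL4, CRY1, ZBTB21, ILDR2 and ZNF274, also called higher than each fraction, held 0. Among genes called lower than each fraction, WSB2 held 1. SKP1, CYCS, SNRPE, MOB4, TBC1D7, BTF3L4, SNHG5 and KDELR3, also called lower, held 0. The windows of RASSF1 and SNRPE lie inside the gene as counted, so their matches are not those before its outermost start. Of 27305 promoters of this length, 11.9% held at least 1 match. These include genes not tested and had a median GC content of 58%, below that of genes tested. The share with a match among genes tested was not taken. A link between the motif and the calls was not tested. The median GC content was 67.2% over the 16 promoters found for genes called higher than each fraction, 61.2% over the 23 found for genes called lower, and 64.8% over 11820 genes tested.

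ZC3H6 (chromosome 2, 113033178 to 113097640), which encodes a CCCH zinc finger protein, was higher at the lamina too. It measured 19.3 and 19.6 CPM in nuclear, 17.9 and 26.4 in cytosolic, 52.7 and 58.1 in native and 47.5 and 54.1 in PFA libraries. All lamina libraries were at least 1.80 times the highest fraction library, and the native and PFA libraries interleaved. The log2 fold change of the sides was 1.35 (SE 0.21, edgeR adjusted p 0.0291).

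Other genes of the higher set had smaller differences that passed against each fraction but not in the average contrast. CRY1, a repressor of the circadian clock, rose from 26.5 ± 3.48 CPM on the fraction side to 49.7 ± 10.6 on the lamina side (SD, n = 4). Here and below, the SD is taken over the 4 libraries of a side. It includes the difference between the side's groups, unlike the spread used in the tests. ZBTB21, a BTB zinc finger gene, rose from 59.8 ± 17.5 to 118 ± 11.8 CPM, and ZNF274, whose KRAB zinc finger protein recruits a histone methyltransferase, from 22.6 ± 3.35 to 42.1 ± 10.2. TSPYL4, of the nucleosome assembly protein family, rose from 28.5 ± 2.63 to 54.0 ± 8.37 CPM. CYB5D2, a haem-binding protein gene, had its lowest lamina library only 1.07 times its highest fraction library, the narrowest gap of the 12 genes plotted. ILDR2, an immunoglobulin-like receptor gene, measured 32.6 CPM in native replicate 1 and 20.3 to 21.0 in the other lamina libraries, against 9.49 to 13.5 in the fractions. Their adjusted p-values by edgeR ran from 0.0243 to 0.0496 across both comparisons.

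The remaining 8 genes called higher than each fraction were outside that rule. They were TFEB, the regulator of lysosome genes, ZNF423, SNHG15, MIR636, TBX4, KRTAP5-2, KRTAP5-AS1 and LOC648987. TFEB measured 1.06 to 2.41 CPM in the fractions and 4.78 to 12.1 at the lamina, with no overlap (log2 fold changes 2.21 and 2.00 against nuclear and cytosolic, edgeR adjusted p 0.0150 and 0.0296). ZNF423 measured 3.61 to 6.23 CPM in the fractions and 8.99 to 18.0 at the lamina. SNHG15 measured 30.0 to 48.3 in the fractions and overlapped the lamina side, which ran from 43.3 to 129. KRTAP5-2 and KRTAP5-AS1 share exonic bases on opposite strands and cannot be told apart, as MIR636 and SRSF2 cannot. TBX4 had 2, 0, 0 and 0 counts in the fraction libraries and 15, 5, 18 and 7 at the lamina.

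**Figure D2:**
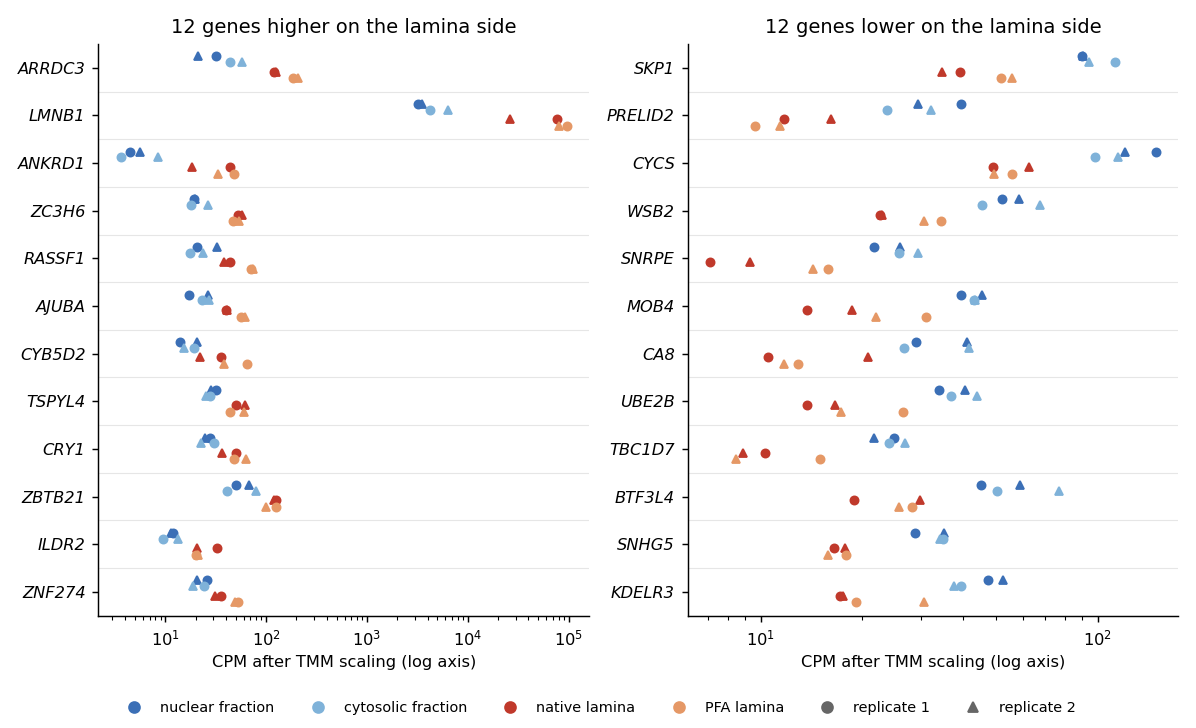
CPM after TMM scaling (log axis) of the 12 higher and 12 lower genes taken by the naming rule, 1 point per library, with circles for replicate 1 and triangles for replicate 2. Red and orange lamina points lie right of all blue fraction points on the left panel, from 1.07 times (CYB5D2) to 4.10 times (LMNB1), and left of them on the right panel.

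Further genes passed the average contrast without passing against both fractions. KLF10, an immediate early zinc finger gene, measured 18.7 and 21.6 CPM in nuclear, 46.1 and 62.4 in cytosolic, 54.6 and 76.2 in native and 88.7 and 127 in PFA libraries. Native replicate 1 lay inside the cytosolic range, and its difference from the cytosolic fraction was 0.63 (edgeR adjusted p 0.129). IGDCC4, an immunoglobulin superfamily gene, did not overlap, with 10.3 to 25.7 CPM in the fractions and 34.2 to 55.2 at the lamina. It was higher than in the cytosolic fraction by 1.90 (edgeR adjusted p 0.00647) and measured 0.66 against the nuclear one (adjusted p 0.0852). NAIF1, a nuclear apoptosis-inducing factor gene, did not overlap either, with 3.89 to 13.9 against 17.8 to 22.5 CPM. The linker histone genes HIST1H1E and HIST1H1D and the core histone gene HIST1H2AL rose against the nuclear fraction by 2.87, 2.84 and 2.95. Against the cytosolic fraction they measured 0.17, -0.16 and -0.28, with edgeR adjusted p from 0.501 to 0.761. HIST1H1E held 88.7 and 145 CPM in nuclear, 631 and 886 in cytosolic, 1540.2 and 1179 in native and 694 and 376 in PFA libraries, so its sides overlapped.

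SNORA53 (chromosome 12, 98993413 to 98993662) gave the smallest p of all genes for lying outside both fractions. It is an H/ACA small nucleolar RNA, a class that guides pseudouridylation in the nucleolus. It measured 123 and 122 CPM in nuclear, 71.0 and 68.5 in cytosolic, 19.6 and 15.9 in native and 24.9 and 28.3 in PFA libraries. The lowest fraction library was 2.42 times the highest lamina library, so the sides lay well apart. Its log2 fold change was -2.09 (SE 0.19, edgeR adjusted p 0.00087), and the call was kept when any 1 library was left out, though not with 1 coefficient per side. SNORA23, also of the H/ACA class, measured 35.6 to 50.5 CPM in the fractions and 8.84 to 22.2 at the lamina (log2 fold change -1.45, edgeR adjusted p 0.0401). SNORD133 measured 111 to 188 CPM in the fractions, 11.3 and 30.9 in native and 92.2 and 64.4 in PFA libraries. Each of these genes is under 300 exonic bases long. Where genes had to lie on 1 chromosome and hold at least 300 exonic bases, the average contrast called 10 higher and 10 lower.

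Small nucleolar and Cajal body RNAs had a list median below the nuclear and above the cytosolic fraction. Of 258 tested, 100 fell and 0 rose against the nuclear fraction, beside 11.7% and 9.66% of all genes, and 7 rose and 7 fell against the cytosolic one, beside 6.1% and 6.16%. Their summed level was 6635 and 8132 CPM in nuclear libraries, 2794 and 2894 in cytosolic ones and 2323 to 3144 at the lamina. Their sides did not overlap for 13 lower (5.04%) and 0 higher genes, beside 1.76% and 2.17% of all genes. The list's median was -0.41 for the side contrast, -1.44 against nuclear and 0.55 against cytosolic RNA. SNORD17 shows the usual pattern, with 703 and 847 CPM in nuclear, 52.7 and 45.0 in cytosolic, 63.5 and 26.8 in native and 128 and 96.0 in PFA libraries. It passed the average contrast (edgeR adjusted p 0.0489) while lying between the fraction means. Of 22 host genes of these RNAs, SNHG5 was lower and SNHG15 higher than each fraction.

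SKP1, CYCS, PRELID2 and SNRPE were among the genes lower than each fraction. SKP1 (chromosome 5, 133492082 to 133512724) encodes the adaptor of SCF ubiquitin ligases. It measured 89.6, 90.4, 112 and 94.1 CPM in the nuclear and cytosolic libraries, 39.0 and 34.5 in native and 51.7 and 55.9 in PFA libraries. The lowest fraction library was 1.60 times the highest lamina library. The log2 fold change was -1.12 (SE 0.19, edgeR adjusted p 0.0401), -1.02 against nuclear and -1.22 against cytosolic RNA. CYCS, which encodes cytochrome c (chromosome 7, 25158270 to 25164980), measured 149, 121, 98.3 and 115 CPM in the fractions and 48.9, 62.5, 55.6 and 49.3 at the lamina. Native and PFA libraries did not separate for it, and its log2 fold change was -1.15 (SE 0.20, edgeR adjusted p 0.0401). PRELID2, of a family of lipid carriers between mitochondrial membranes, measured 23.8 to 39.4 CPM in the fractions and 9.61 to 16.2 at the lamina (log2 fold change -1.36, edgeR adjusted p 0.0408). SNRPE, an Sm protein of spliceosomal particles, measured 21.6 to 29.4 CPM in the fractions, 7.07 and 9.28 in native and 15.9 and 14.3 in PFA libraries. It passed against each fraction (adjusted p 0.0142 and 0.0118) and had 0.0506 in the average contrast.

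The other lower genes of the plot passed against each fraction but not in the average contrast. UBE2B, a ubiquitin-conjugating enzyme gene, fell from 38.7 ± 4.38 CPM on the fraction side to 18.5 ± 5.49 on the lamina side (SD, n = 4). MOB4, of a phosphatase-kinase complex, fell from 42.8 ± 2.62 to 21.4 ± 7.29, and it shares exonic bases with the read-through gene HSPE1-MOB4. TBC1D7, a subunit of the tuberous sclerosis complex, fell from 24.4 ± 2.16 to 10.6 ± 2.99, and it shares bases with another gene model. CA8, a carbonic anhydrase relative without enzyme activity, fell from 34.5 ± 7.84 to 14.0 ± 4.63. WSB2 and BTF3L4 fell from 55.9 ± 9.50 to 27.6 ± 5.78 and from 57.8 ± 14.0 to 25.6 ± 4.77. KDELR3, a receptor that returns proteins to the endoplasmic reticulum, measured 17.2 to 19.2 CPM in 3 lamina libraries and 30.5 in PFA replicate 2, against 37.4 to 52.4 in the fractions. It shares exonic bases with DDX17. SNHG5 measured 28.6 to 35.05 CPM in the fractions and 15.8 to 17.9 at the lamina. CRLF3, outside the rule, had lamina values of 22.9 to 24.6 CPM against 39.6 to 79.5, with an adjusted p of 0.0291 in the average contrast. CDK1, the mitotic kinase, measured 77.0 to 162 CPM in the fractions and 42.6 to 66.2 at the lamina (log2 fold change -1.17, edgeR adjusted p 0.0448). COMMD6, C12orf57, HIF1A-AS2, SPHAR, TPRKB, ALDH7A1, STC1, ELOC, PIM2, PIN4, BTG1, SUGT1, PCLAF, CPT1C and RBM12 completed the 32.

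The gene lists split by which fraction they were rich in, and their counts stand beside 9.66% of all genes higher and 11.7% lower than the nuclear fraction, and 6.1% higher and 6.16% lower than the cytosolic one. Replication-dependent histones rose against the nuclear fraction in 42 of 46 genes and fell against the cytosolic one in 9, with a median of 2.16 and -0.66, and 0 had sides that did not overlap. Cytosolic ribosomal protein genes fell against the cytosolic fraction in 69 of 85 and rose against the nuclear one in 10, a share near that of all genes, with 3 lower there. For 5 of them (RPS27, RPL22L1, RPS3A, RPL37 and RPS26) all lamina libraries lay below all fraction libraries. RPS3A measured 83.9, 117, 122 and 182 CPM in nuclear and cytosolic libraries and 59.8, 62.2, 74.5 and 62.2 at the lamina, with an average contrast of -0.94 (edgeR adjusted p 0.0785). For the ribosomal protein genes single lamina libraries had medians of -0.61 and -0.92 (native) and 0.16 and -0.54 (PFA replicates 1 and 2). Oxidative phosphorylation genes fell against the cytosolic fraction in 46 of 80 and rose against the nuclear one in 11. Their medians in single lamina libraries were -0.56 and -1.04 (native) and 0.29 and -0.43 (PFA), so PFA replicate 1 differed in sign for both lists. ATP5S and UQCRBP1 lay below both in all libraries, 2.5% of the list beside 1.76% of all genes. Metallothionein MT1X, a small metal-binding protein gene, was lower in the average contrast (log2 fold change -2.32, edgeR adjusted p 0.0408). It measured 24.6 and 30.4 CPM in cytosolic, 2.65 and 6.87 in nuclear and 1.46 to 4.25 in lamina libraries, so it overlapped the nuclear fraction.

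Glycolysis and low-oxygen response genes had the lowest median of the lists with 5 or more genes, -0.66. Of 25, 16 fell and 0 rose against the cytosolic fraction, beside 6.16% and 6.1% of all genes. Against the nuclear one 3 fell and 1 rose, beside 11.7% and 9.66%, and 12 had a lamina mean below both fractions, beside 16.0% of all genes. PDK1, a kinase that limits pyruvate entry into mitochondria, measured 104 and 115 CPM in nuclear, 79.8 and 84.6 in cytosolic, 45.5 and 86.5 in native and 32.7 and 30.2 in PFA libraries. Native replicate 2 lay inside the fraction range, and the average contrast was -1.06 (edgeR adjusted p 0.0691). P4HA1, a collagen prolyl hydroxylase gene, measured 182, 277, 88.2 and 143 CPM in the fractions and 52.7, 140.1, 44.0 and 39.4 at the lamina, where native replicate 2 again stood high. ANKRD37 had no overlap, with 7.94 to 27.3 CPM in the fractions and 3.33 to 5.16 at the lamina (adjusted p 0.0693 by edgeR).

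In the mitosis list, 0 of 29 genes passed against each fraction, beside 0.121% higher and 0.194% lower of all genes. KIF11 and AURKB lay below both in all libraries (6.90%, beside 1.76% of all genes). MKI67, a coat protein of mitotic chromosomes, parted the lamina preparations. It measured 293, 263, 249.6 and 259 CPM in the fractions, 489 and 837 in native and 168 and 206 in PFA libraries. Native libraries lay above and PFA libraries below all fraction libraries, and the PFA against native log2 fold change was -1.83 (edgeR adjusted p 0.257). Immediate early genes had 6 of 26 higher than in the nuclear and 0 than in the cytosolic fraction, beside 9.66% and 6.1% of all genes. The lists of endoplasmic reticulum chaperones and translocon (30 genes), oxidative stress and heat shock (19) and splicing regulators (17) each had 0 genes called against each fraction. In them 0, 1 (NQO1) and 1 (TRA2A) genes lay below all fraction libraries and 0 lay above, beside 1.76% and 2.17% of all genes.

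**Figure D3:**
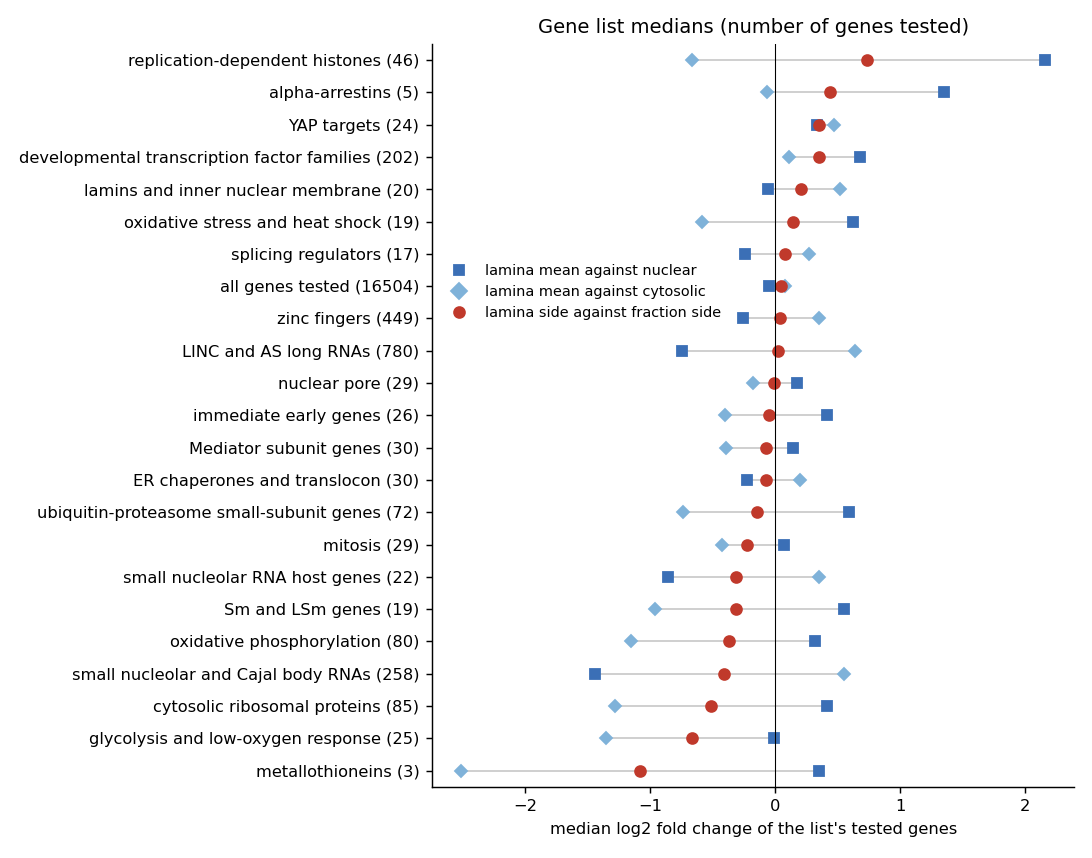
Median log2 fold change (x axis) of each gene list, with the number of genes tested in brackets, for the lamina mean against the nuclear fraction (squares), against the cytosolic fraction (diamonds) and for the sides (circles). Squares and diamonds lie on opposite sides of 0 for most lists; for YAP targets (0.33 and 0.47) and the developmental transcription factor genes (0.68 and 0.12) both lie above 0.

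Zinc finger genes and long RNAs lay between the fractions as lists. The medians of zinc fingers were -0.25 against nuclear and 0.35 against cytosolic RNA, and those of LINC and AS long RNAs -0.74 and 0.64, with 174 of 780 lower than nuclear (11.7% of all genes) and 47 higher than cytosolic (6.1%). Of 449 ZNF genes, 21 had all lamina libraries above all fraction libraries (4.68%, beside 2.17% of all genes) and 4 below (0.891%, beside 1.76%). Their side median was 0.04, and ZNF274 and ZNF423 were called against each fraction. ZNF467 measured 3.27 to 9.94 CPM in the fractions and 12.2 to 21.3 at the lamina, with an average contrast of 1.61 (edgeR adjusted p 0.0508). ZNF319 passed the average contrast at 1.29 (edgeR adjusted p 0.0460), from 7.22 to 15.2 CPM in the fractions to 18.6 to 34.2 at the lamina, and shares exonic bases with USB1. Of 780 LINC and AS long RNAs, 20 lay above (2.56%) and 7 below (0.897%). Among them HIF1A-AS2, which lies over HIF1A on the other strand, was lower than each fraction. Strand was not used in counting, so its reads cannot be told from those of HIF1A where the genes overlap.

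A group of developmental transcription factor families, put together after the values were seen, had a larger share of genes above both fractions than the table as a whole. The families are homeobox, T-box, forkhead, SOX, SALL and related regulators that set cell fate in embryos. All lamina libraries were above all fraction libraries for 23 of 202 genes tested (11.4%, beside 2.17% of all genes) and below for 2, HOXA4 and MEIS3. The lamina mean was above both fractions for 80 and below both for 10. The group's median side value was 0.35, and its median in single lamina libraries was 0.29 and 0.30 in native and 0.31 and 0.38 in PFA libraries. Of the group, 58 rose and 7 fell against the nuclear fraction and 8 rose and 2 fell against the cytosolic one, and TBX4 passed against each. Of all genes 9.66% rose and 11.7% fell against nuclear and 6.1% rose and 6.16% fell against cytosolic RNA, so calls against the cytosolic fraction were no more frequent in the group. Because the group was drawn from these values, the counts describe it and support nothing.

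None of the single members passed the average contrast. SIM1, a neural transcription factor gene, measured 6.85, 5.50, 8.56 and 8.25 CPM in the fractions and 18.9, 16.1, 14.97 and 15.1 at the lamina, with an average contrast of 1.17 (edgeR adjusted p 0.0744). SALL4, a pluripotency gene, measured 15.8 to 21.1 CPM in the fractions and 22.4 to 41.9 at the lamina (0.76, adjusted p 0.166). ISL2, a LIM homeobox gene of motor neurons, measured 10.7 to 23.5 and 28.4 to 45.2 CPM (0.95, adjusted p 0.125). TBX3, a T-box gene, measured 54.6 to 92.6 and 98.1 to 112.6 CPM. SP8, with 2.92 to 8.56 CPM in the fractions, had lamina libraries from 12.01 to 12.5. The average contrast of edgeR called 0 of the 202, and POU4F2 and NEUROG2 had at most 12 counts in any library.

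**Figure D4:**
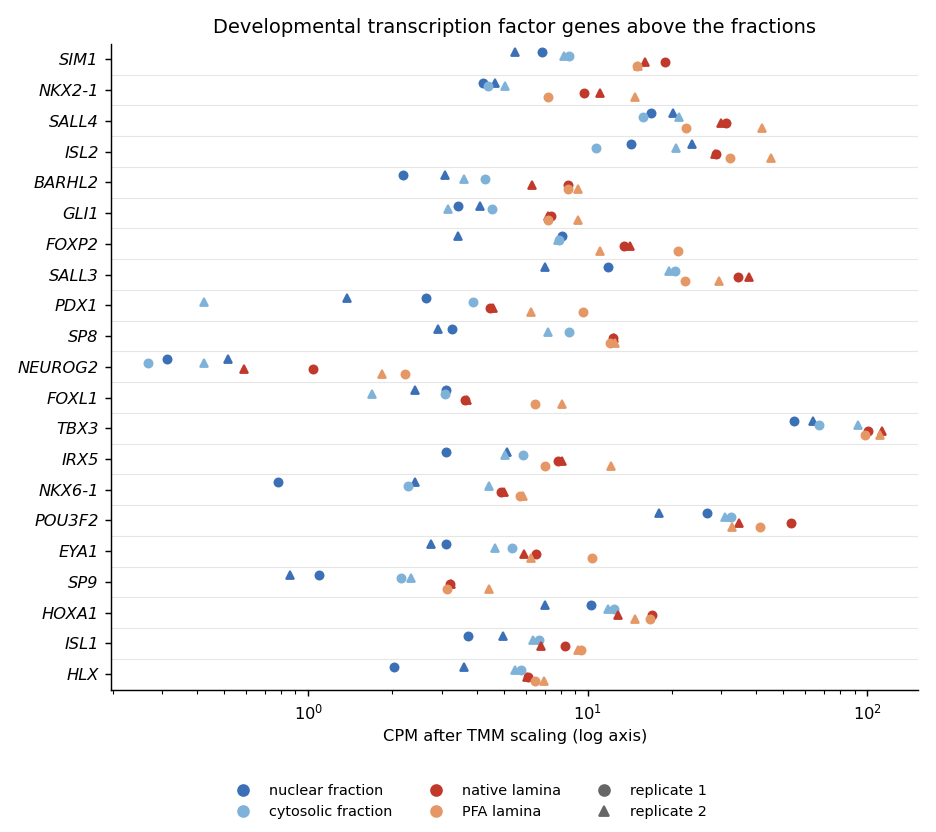
CPM after TMM scaling (log axis) of the 21 developmental transcription factor genes with a count in every library whose lamina libraries all lay above the fraction libraries, 1 point per library. The genes were picked for this order, so the picture shows its size: the sides nearly touch for POU3F2 and ISL1 and lie well apart for SIM1 and GLI1.

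Ubiquitin-proteasome genes of small subunits and Sm and LSm genes, both also grouped after the values were seen, leaned the other way. PFA replicate 1 was the exception. Single lamina libraries had medians of -0.25 and -0.44 (native) and 0.46 and -0.32 (PFA) for ubiquitin-proteasome genes. For Sm and LSm genes they had -0.43 and -0.73 (native) and 0.12 and -0.79 (PFA). Of 72 ubiquitin-proteasome genes, PSMB10, SKP1, UBE2B and UBE2D4 lay below all fraction libraries and 0 above, and SKP1, UBE2B and ELOC were called against each fraction, beside 1.76% and 0.194% of all genes. Of 19 Sm and LSm genes, LSM5, SNRPE and SNRPG lay below and 0 above, and 8 had a lamina mean below both fractions and 0 above, beside 16.0% and 18.0% of all genes. In these groups 26 and 9 genes fell against the cytosolic fraction (6.16% of all genes) and 17 and 3 rose against the nuclear one (9.66%). Because these groups too were drawn from the values, the counts describe them and support nothing.

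Genes whose sides did not overlap differed in length between the directions. The median exonic length was 4221 bases for the 358 above, 2507 for the 290 below and 3161 for all genes tested. The share of genes above rose from 0.517% under 300 bases to 3.17% between 5000 and 8000, and the share below went from 4.39% to 0.891%; from 8000 bases up they were 2.65% and 1.17%. This order was not uniform between the preparations. Under 300 bases the library medians were -0.042 and -0.14 in native and -0.61 and -0.28 in PFA replicates 1 and 2. From 300 bases up the median of native replicates 1 and 2 rose with length, from -0.35 and -0.44 at 300 to 1000 bases to 0.29 and 0.36 from 8000 bases up, whereas that of PFA replicate 1 was -0.01 and -0.29 and that of PFA replicate 2 -0.11 and 0.03. The part of length in any gene's call was not tested. Of the genes above, 5 (1.40%) lay wholly inside a lamina-associated domain mapped in every stage of HCT116, a colorectal carcinoma line, of those below 1 (0.345%), and of all genes 194 (1.18%). The domains were not mapped in HEK293FT.

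**Figure D5:**
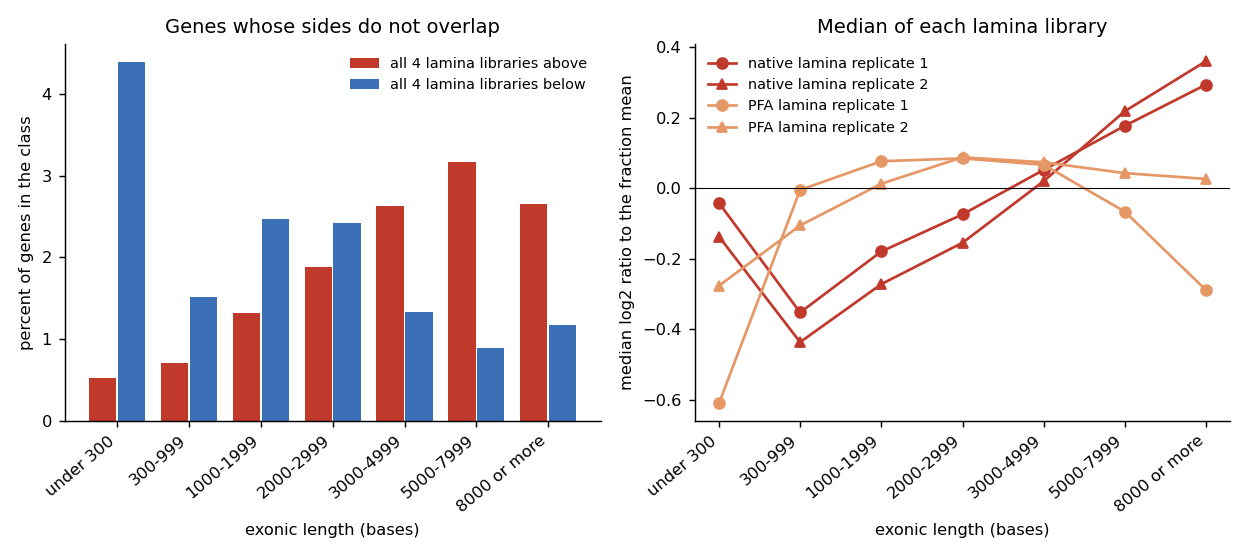
Left, percent of genes in each class of exonic length (bases) whose 4 lamina libraries all lie above (red) or below (blue) the 4 fraction libraries. Right, the median log2 ratio of each lamina library to the mean of the fraction libraries in the same classes; from 300 bases up native libraries climb to 0.29 and 0.36, while PFA replicate 1 lies lowest under 300 bases (-0.61) and is at -0.29 from 8000 bases up.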

How the data were processed

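RNA was counted per gene symbol in 8 HEK293FT libraries. The deposited values are raw read counts that the authors made with featureCounts 1.5.2 on a RefFlat gene annotation of hg19 (per the file headers), ignoring strand and counting a read for every gene it overlaps. TopHat2 2.1.1 and Bowtie2 2.3.2 stand in the submitters' processing notes. The header of cytosolic replicate 1 names the output of nuclear replicate 1 but its own input. Domain lists were deposited as intervals without scores.

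Genes were filtered with filterByExpr by group, scaled by TMM and tested with edgeR 4.0.16 (R 4.3.3) quasi-likelihood, 1 coefficient per group over 8 libraries and no block, after checks on simulated data. Each contrast was adjusted by Benjamini-Hochberg at 0.05. Counts of 3 or fewer are the floor, equal to 0.312 to 1.10 CPM, and cover counting error only, since reads carry no molecular identifiers. Replicate numbers are shared by label, but only 2 per group.

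Genes were named by rule: at least 300 exonic bases, 1 chromosome, 50 counts in every library of the higher side, and then, since none passed the strictest reading, the 12 per direction with the smallest larger p among genes whose sides do not overlap, plus 18 fixed genes and up to 4 per list. The members and the 18 lists were chosen with earlier results of these data known. The other named genes and 5 further lists were chosen after their values were seen. Comparisons with the nuclear and cytosolic fractions share the lamina libraries.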

Additional observations from a re-analysis of the deposited data

Results flagged for a closer look

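Among 200 sets of 4 library values examined for named genes, 13 had 1 library far from the others by Dixon's criterion at 95%. The criterion takes the 4 values as drawn alike, whereas each set joined 2 groups. Its rate of 1 in 20 by chance therefore does not apply here. On the lamina side ILDR2 had 32.6 CPM in native replicate 1, KDELR3 30.5 CPM and SNHG19 7.36 CPM in PFA replicate 2, and MT1X 4.25 CPM, RPS3A 74.5 CPM and SRSF3 245.6 CPM in PFA replicate 1. In native replicate 2 FJX1 had 16.7 CPM, NUSAP1 194 CPM, ARRDC4 105 CPM and P4HA1 140.1 CPM. On the fraction side SNHG5 had 28.6 CPM in nuclear replicate 1, AURKB 111 CPM in nuclear replicate 2 and RPL22L1 20.1 CPM in cytosolic replicate 2.

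MKI67 lay above the fraction libraries in both native libraries and below them in both PFA libraries. The PFA against native log2 fold change was -1.83, with an adjusted p of 0.257 by edgeR, so the difference of direction did not pass a test.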

How the results depend on the processing

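Genes higher and lower in the average contrast (17 and 19) numbered 315 and 26 with total counts, 350 and 250 without a filter, 61 and 61 with at least 10 counts in every library, 10 and 10 with at least 300 exonic bases on 1 chromosome, 13 and 12 with native libraries alone, 9 and 4 with PFA libraries alone, 0 and 0 with 1 coefficient per side, 196 and 163 by the Wald test of DESeq2, 3 and 1 with a minimum change of 1.5-fold, and 75 and 66 with a replicate block. Samples share only a replicate number: same-numbered deviations correlated from -0.03 to 0.35. Leaving out 1 library gave 1 to 331 and 1 to 290, the lone library of a group being assumed to vary like the others. Genes outside both fractions (0 and 0) numbered 20 and 32 when each comparison was adjusted alone, 4 and 5 without a filter, 3 and 4 by DESeq2, 0 to 3 and 0 to 2 without 1 library, 1 higher with total counts, and 1 lower with DESeq2 size factors or LMNB1 left out; it has no value with 1 coefficient per side. Genes whose sides do not overlap (358 and 290) numbered 760 and 98 with total counts, and 25 and 19 with a margin of 1.5 times. This order is easier to meet with fewer libraries. Such genes numbered 1186 and 1058 with native alone, 1105 and 767 with PFA alone, and 441 to 752 and 343 to 673 without 1 library. Signs turned for LMNA (0.19 with total counts, 0.023 native alone, -0.16 to 0.070 without 1 library), ARRDC1 (0.059, total counts), MALAT1 (-0.018 with the block, -0.93 PFA alone, -0.60 to 0.57 without 1 library), EMD (-0.18) and NEAT1 (0.076) native alone, MKI67 (-0.51) and MT1F (0.30) PFA alone, and, without 1 library, MT1F (-3.09 to 0.19), HIST1H4J (-0.62 to 0.97) and ACTB (-0.025 to 0.36). None of the turned values passed the test. The cause was not tested. Of the other single-gene values, 1719 kept direction and side of the threshold, 178 newly passed and 223 no longer did; 307 list medians and related values moved by less than their spread and 17 by more. PFA replicate 2, with the fewest counts, limits low genes most.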

Other observations

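Mediator is the complex that joins transcription factors to RNA polymerase II. In its 30 subunit genes tested, a list put together after the values were seen, MED20, MED21, MED28, MED31 and MED4 had all lamina libraries below all fraction libraries and MED22 above, which is 16.7% and 3.33% of the list beside 1.76% and 2.17% of all genes. The list's median side value was -0.07, 8 genes had a lamina mean below both fractions and 5 above, and 0 passed the average contrast or were called against each fraction by edgeR at an adjusted p under 0.05. Because the list was drawn from these values, its counts support nothing.

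PPP1R12A, which encodes the targeting subunit of myosin phosphatase, and MTDH, an endoplasmic reticulum and nuclear protein gene, had their higher values in the native libraries. PPP1R12A measured 42.1 to 54.1 CPM in the fractions, 88.5 and 108 in native and 53.2 and 60.3 in PFA libraries. MTDH measured 64.3 to 77.8 CPM in the fractions, 147 and 129 in native and 82.0 and 67.7 in PFA libraries. Their average contrasts of 0.57 and 0.50 did not pass the test (edgeR adjusted p 0.183 and 0.226).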
